A study of Mus musculus with 15 samples.

Results

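The proteasome subunit genes are the 48 genes whose symbols read Psma, Psmb, Psmc, Psmd, Psme, Psmf or Psmg followed by digits, among 36118 gene identifiers measured by RNA sequencing. Pseudogenes and Psmc3ip, which encodes a meiotic recombination factor and no proteasome subunit, were left out. Whole testes of mice of the genotype given as C57/BL6 were profiled in 5 groups of 3 libraries, a Control and the treatments MTX, HMS-I1, AA and TSA. The labels give no dose, duration or age and spell out none of the 4 treatment names. The 3 HMS-I1 libraries, grouped by their titles, carry a different treatment entry each (HMS-I1, HMS-I2, HMS-I3). Nothing says that the replicates of a group come from separate animals, so each p-value measures the spread between these libraries, which may be technical.

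The proteasome is a barrel-shaped protease that destroys proteins tagged with ubiquitin. Its core particle stacks rings of alpha subunits, which form the gate, around rings of beta subunits, of which PSMB5, PSMB6 and PSMB7 cut proteins. Immune cells and cells exposed to interferon replace these by PSMB8, PSMB9 and PSMB10, which favours peptides for antigen presentation. A regulatory particle caps the core, with a base that holds ubiquitin receptors and the ATPases that unfold substrates, and a lid that removes ubiquitin. Testis is known for the alpha subunit PSMA8, which takes the place of PSMA7 in meiotic germ cells. The activator PSME4, also called PA200, opens the core and has been tied to the breakdown of acetylated histones.

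All values are deposited normalised counts, and changes are differences of mean log2(normalised count + 1) between groups, with standard errors (SE) from limma. Column sums were 2.75e+07 to 4.06e+07, and the sequencing depth is unknown. The libraries fall into 2 sets that cut across the groups. The first 2 Control replicates and the first of every treatment, 6 histone-rich libraries, had a mean log2 value of 7.79 to 8.82 over 60 histone genes, against 2.95 to 3.86 in the other 9, called histone-poor here. Mitochondrial genes took 1.08% to 1.40% of the histone-rich libraries and 3.54% to 13.7% of the histone-poor ones. Genes above 0 numbered 20683 to 21244 in histone-rich and 21363 to 22858 in histone-poor libraries. The commonest low value was 1.98 to 2.62 normalised counts in the histone-rich and 0.453 to 0.917 in the histone-poor ones. Depth may thus differ between the sets, and whether it had a part in their differences was not tested. Control thus holds 2 histone-rich libraries and each treatment 1, and each comparison below is read beside this imbalance. Markers of spermatocytes, round and elongating spermatids, spermatogonia, Sertoli cells, Leydig cells and leukocytes were above 0 in every library. In whole testis, fewer cells of a type and less RNA per cell cannot be told apart.

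Among the genes, 47 had a mean of at least 10 normalised counts and were tested. The remaining member, Psmb11, the active-site subunit of the thymus, was listed at 0 to 5.37 normalised counts. Levels of different genes were compared per kilobase of the longest coding transcript of each gene. On that scale the alpha subunit Psma6 stood highest, with a median over the 15 libraries of 16704 normalised counts per kilobase. The ATPase Psmc3 followed at 13622, the active-site subunit Psmb6 at 6858.7 and the ATPase Psmc2 at 5093.5. Psma6 stood above the other 6 alpha ring genes, Psma1 to Psma5 and Psma7, in every library, and those had medians of 958 to 3003 normalised counts per kilobase. Psmc3 likewise stood above the other ATPase genes in every library. Psmc2 did not, since Psmc1 (median 2388) exceeded it in Control replicate 3, MTX replicate 2 and TSA replicate 2, and the 3 remaining ATPase genes had medians of 1010 to 2214. Among the beta genes Psmb7 (median 4288, 3604 to 7280 over the libraries) overlapped with Psmb6 and exceeded it in MTX replicate 3. A core particle holds equal numbers of each alpha subunit. The ranges of Psma6 (8658 to 20744 over the libraries) and Psmc3 (9085 to 17845) overlap, and so do those of Psmb6 (3928 to 8957) and Psmc2 (3179 to 5840). Within libraries, Psmb6 exceeded Psmc2 in all but MTX replicate 2 and AA replicate 2. Psma6 exceeded Psmc3 in all but Control replicate 3, MTX replicate 2, HMS-I1 replicate 2, TSA replicate 2 and TSA replicate 3.

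**Figure D1:**
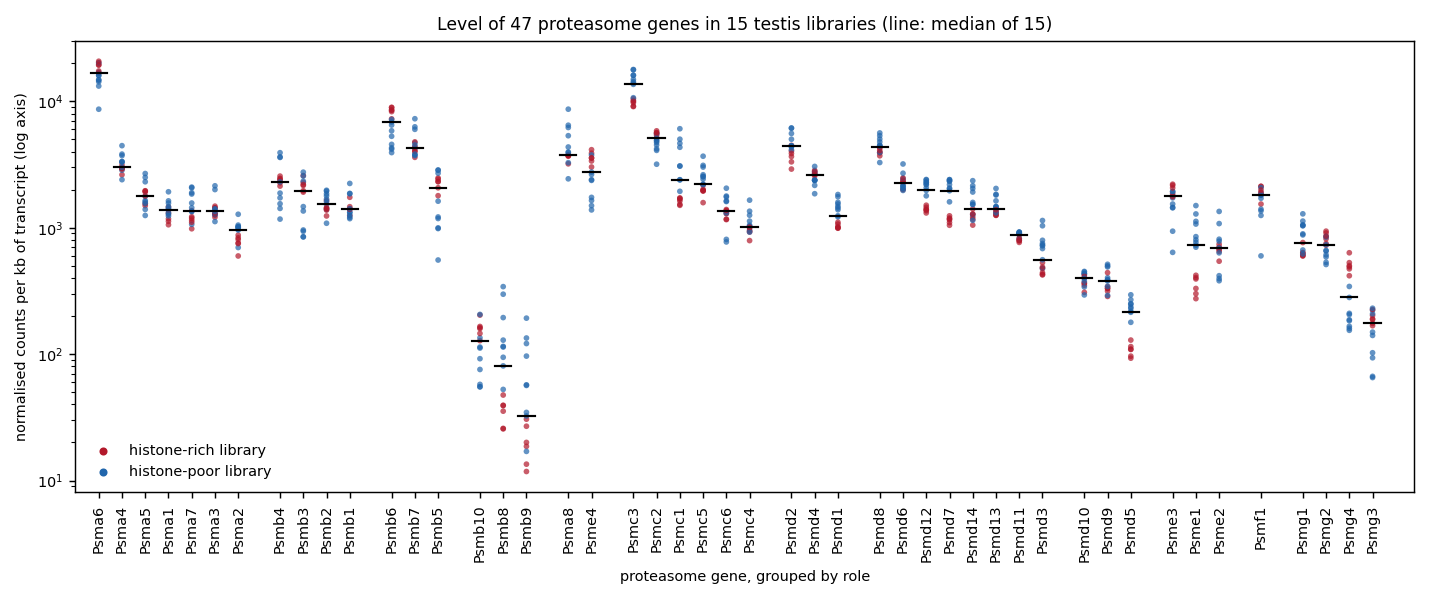
Normalised counts per kilobase (log axis) of the proteasome genes in each library, grouped by role, with 1 point per library coloured by library set. Psma6 and Psmc3 lie at the top with medians of 16704 and 13622, and the 3 immune active-site genes have the lowest medians of the tested genes, at 32.4 to 128.

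Psma8 and the activator Psme4 were abundant. Psma8 (ENSMUSG00000036743) had a median of 3764 normalised counts per kilobase and Psma7, the alpha subunit it replaces, 1347. Of their sum per kilobase, Psma8 made up 63.4% to 89.1% in the 15 libraries, with a median of 75.6%. It was thus the larger of the pair in every library, histone-rich (73.1% to 77.3%) and histone-poor alike. Psme4 (ENSMUSG00000040850) had the highest median of the 4 activator genes, at 2755 normalised counts per kilobase. The nuclear activator Psme3 had a median of 1778, overlapped with Psme4 and exceeded it in MTX replicate 3 and HMS-I1 replicate 3, and Psme1 and Psme2, the cytoplasmic pair that interferon raises, had 726 and 686. Psme4 took 47.5% to 60.1% of the summed activator transcripts in the histone-rich libraries and 28.6% to 55.7% in the histone-poor ones.

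By their medians over the 15 libraries, the immune active-site genes were the lowest of the tested members. Single libraries overlapped with other members. In MTX replicate 3 Psmb8 was at 342 normalised counts per kilobase, above the assembly chaperones Psmd5 (269) and Psmg3 (208). In AA replicate 3 it was at 298, against 218 and 149. Psmb10 had a median of 128 normalised counts per kilobase, Psmb8 of 80.7 and Psmb9 of 32.4, against 2069 to 6859 for Psmb5, Psmb6 and Psmb7. Each immune subunit takes the place of a constitutive one, Psmb8 that of Psmb5, Psmb9 that of Psmb6 and Psmb10 that of Psmb7. The share of Psmb8 in the sum with Psmb5 was 1.05% to 2.58% in histone-rich and 3.20% to 19.7% in histone-poor libraries, which do not overlap. For Psmb9 with Psmb6 the shares were 0.139% to 0.369% and 0.320% to 3.30%. Psmb10 went the other way, with 2.61% to 4.53% of the sum with Psmb7 in histone-rich libraries and 1.21% to 2.87% in histone-poor ones.

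The 250 bases before the transcription start of 2 such pairs are shown because Psmb8 and Psmb9 had lower, and Psmb5 and Psmb6 higher, mean log2 values in the histone-rich libraries, though the ranges of Psmb9 and Psmb5 overlapped between the sets. They come from RefSeq's GRCm38.p6, which matched 40 of the 48 genes, and the submitters' processing notes name GRCm39 for the counts, so the coordinates are those of the older build. Capitals mark the letters TTCNNNGAA (the gamma-activated site, found at interferon-responsive genes) or TGACNNNGC (the core of the antioxidant response element, bound by the factors NFE2L1 and NFE2L2 that raise proteasome genes), searched on both strands. The promoter windows are Psmb8 at chr17:34197945-34198194 on the plus strand, Psmb9 at chr17:34187331-34187580 on the minus strand, Psmb5 at chr14:54617996-54618245 on the minus strand and Psmb6 at chr11:70525107-70525356 on the plus strand.
Psmb8: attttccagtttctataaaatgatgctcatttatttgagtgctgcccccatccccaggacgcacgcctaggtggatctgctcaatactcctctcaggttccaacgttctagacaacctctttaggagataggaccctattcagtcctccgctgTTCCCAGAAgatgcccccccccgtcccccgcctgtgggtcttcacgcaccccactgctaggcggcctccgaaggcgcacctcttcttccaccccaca
Psmb9: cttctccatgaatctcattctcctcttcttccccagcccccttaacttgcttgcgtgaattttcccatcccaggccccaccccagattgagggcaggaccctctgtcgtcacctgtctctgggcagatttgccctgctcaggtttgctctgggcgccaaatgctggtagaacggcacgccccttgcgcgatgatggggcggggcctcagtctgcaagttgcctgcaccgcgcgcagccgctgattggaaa
Psmb5: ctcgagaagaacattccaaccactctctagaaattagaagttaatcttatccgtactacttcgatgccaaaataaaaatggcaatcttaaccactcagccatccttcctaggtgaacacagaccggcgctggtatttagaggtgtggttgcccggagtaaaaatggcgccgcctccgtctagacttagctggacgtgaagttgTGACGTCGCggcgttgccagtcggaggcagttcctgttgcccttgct
Psmb6: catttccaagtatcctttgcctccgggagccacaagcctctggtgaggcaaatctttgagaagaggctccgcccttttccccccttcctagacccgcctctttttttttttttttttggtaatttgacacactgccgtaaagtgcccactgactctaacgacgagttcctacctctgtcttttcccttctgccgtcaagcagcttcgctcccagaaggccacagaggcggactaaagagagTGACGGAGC

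In these windows the gamma-activated letters began 97 bases before the start of Psmb8 and were not found in Psmb9, and the antioxidant letters began 47 bases before Psmb5 and 9 before Psmb6. Over the 40 promoters matched, TTCNNNGAA occurred in 2 (5.0%, Psmb8 and Psmg1), against 7.18% of the 27025 mouse promoters of the same length. TGACNNNGC occurred in 5 (12.5%, also Psmc6, Psmd9 and Psmd12), against 10.2%. The interferon-stimulated response element, written as a pair of GAAA blocks with 2 bases between, occurred in Psmb3, Psmd4 and Psmd9 (7.5% against 3.04%). A match of letters is not a bound site, and its absence says nothing of a factor.

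Across the 15 libraries, the ratio of the highest to the lowest value had a median of 2.15 over the 47 members and was under 2 for 17 of them. Over the 17286 tested genes above 0 in every library its median was 3.23, with 16.0% under 2. These genes were not matched to the members for level. They start at a mean of 10 normalised counts, while the means of the 48 members had a median of 2703. Whether level had a part in the ratios was not tested. Psmd11, a lid subunit that helps to join the particles, was the steadiest, at 2180 to 2630 normalised counts and a ratio of 1.21. At the other end stood Psmb9 with 16.3, Psmb8 with 13.4, Psme1 with 5.45 and Psmb5 with 5.15.

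Psmb8 (ENSMUSG00000024338) stood at 63.7, 42.1 and 131 normalised counts in Control replicates 1 to 3, and at 64.1, 185 and 557 in MTX. In the same order its values were 41.7, 85.6 and 154 in HMS-I1, 77.2, 210.0 and 485 in AA, and 57.6, 317 and 187 in TSA. The lowest library of each treatment was its histone-rich replicate 1, inside the Control range or just below it. MTX replicate 3 and AA replicate 3 were the highest of all 15, and every group overlapped with Control. Psmb9 (ENSMUSG00000096727) was at 36.3, 25.2 and 46.7 in Control, 41.3, 181 and 260 in MTX, 27.1, 23.0 and 43.8 in HMS-I1, 18.2, 76.4 and 130 in AA, and 15.9, 164 and 77.3 in TSA. Psmb10 did not follow them, with 209, 267 and 75.5 in Control and 72.2 to 270 over the 12 treated libraries. Means of Psmb8 were 79.1 ± 46.6 in Control, 269 ± 257 in MTX, 93.6 ± 56.4 in HMS-I1, 257 ± 208 in AA and 187 ± 130 in TSA (SD, n = 3 each), so the SD of each treatment exceeded its difference from Control.

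**Figure D2:**
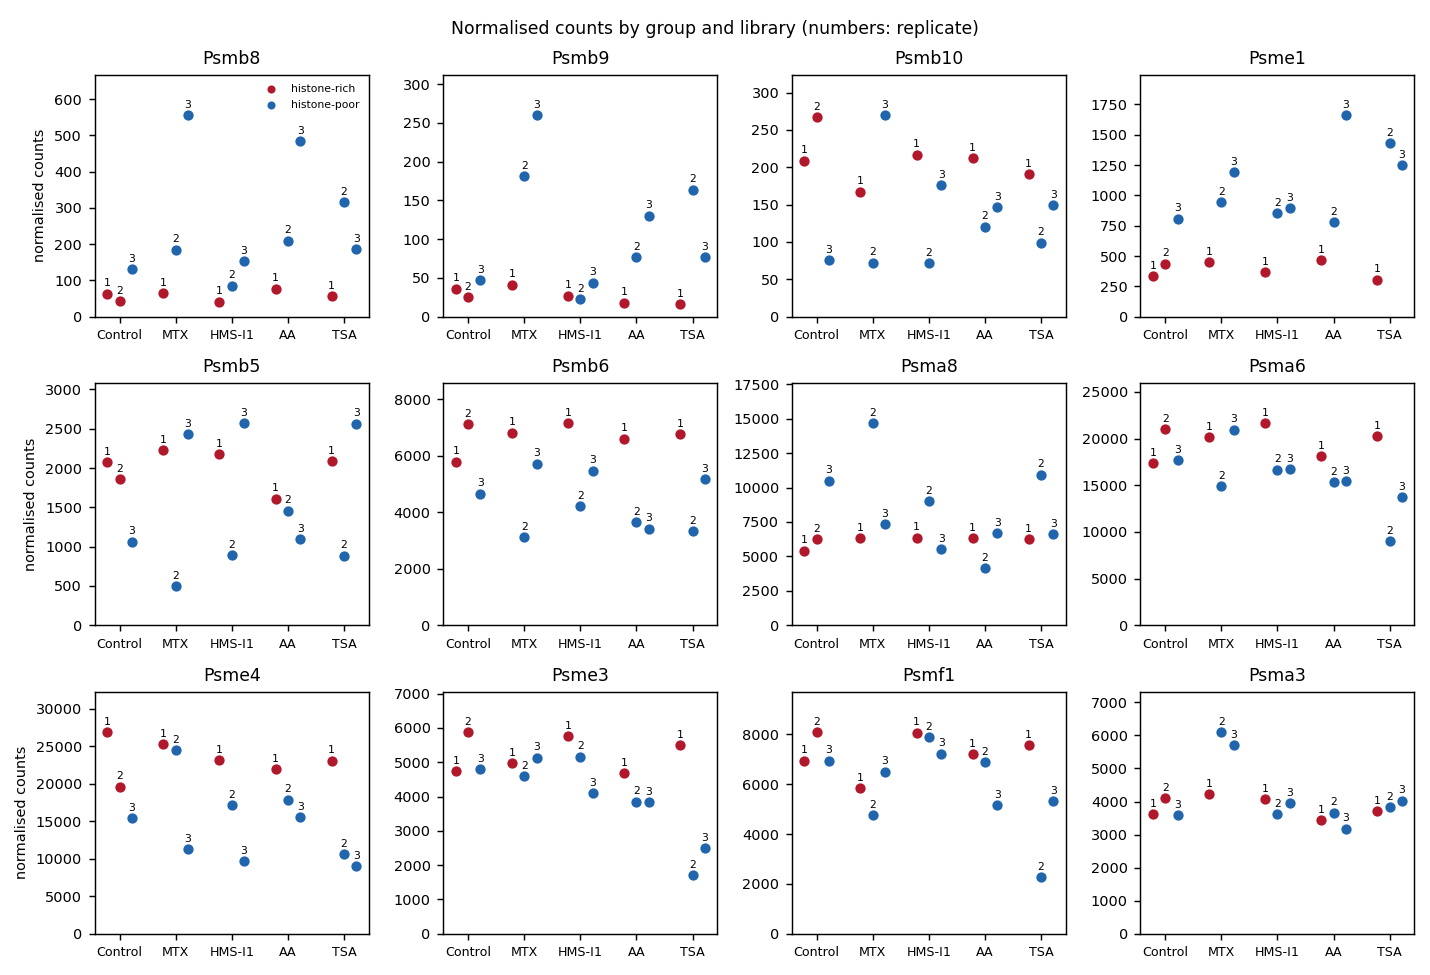
Normalised counts of 12 proteasome genes by group, 1 point per library with its replicate number, coloured by library set (axes start at 0). Psmb8 and Psme1 are higher in the histone-poor libraries of each group, Psma3 is highest in the 3 MTX libraries, and Psme3 is lowest in TSA replicates 2 and 3 at 1700 and 2500.

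With the mean log2 of Psmb8, Psmb9 and Psmb10 as their level, MTX replicate 3 was highest (8.41), followed by AA replicate 3 (7.72) and TSA replicate 2 (7.44). The same 3 libraries were highest in a list of 17 leukocyte genes, with mean log2 values of 8.96, 9.49 and 9.29. The genes of that list differed. Cd74 was highest in these 3 libraries, at 3485, 3548 and 3517 normalised counts. Csf1r was at 382, 650 and 473 there, against 932, 1176 and 409 in Control. All 17 leukocyte genes were above 0 in every library, and the list's summed value ran from 6321 to 8482 normalised counts in Control, 6890 to 15888 in MTX, 5301 to 12202 in HMS-I1, 6840 to 18609 in AA and 4752 to 17707 in TSA. In the histone-rich libraries the leukocyte mean was 7.58 to 8.07 and the immune active-site mean 5.85 to 6.32. In the histone-poor ones these were 7.98 to 9.49 and 5.74 to 8.41, so the sets overlap in both, with HMS-I1 replicate 2 the lowest of all libraries in the immune active-site mean. Whether leukocyte content had a part in the immune subunit levels was not tested. A list of 20 genes of antigen presentation and interferon response, which holds no proteasome gene, was also highest in these 3 libraries, at 8.82, 9.17 and 8.87.

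**Figure D3:**
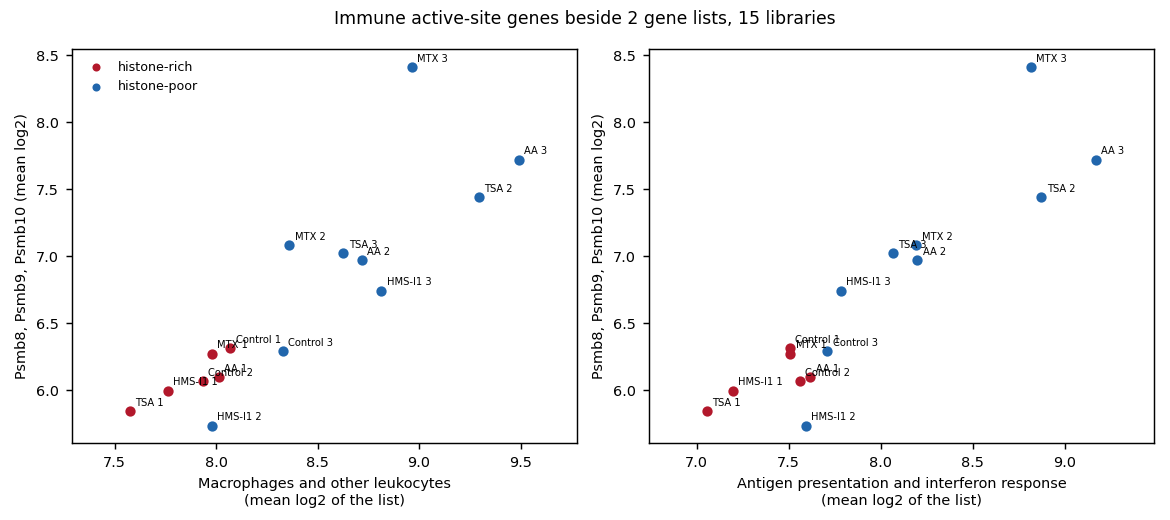
Mean log2 of Psmb8, Psmb9 and Psmb10 in each of the 15 libraries against the mean log2 of 17 leukocyte genes (left) and of 20 antigen presentation and interferon genes (right), coloured by library set. MTX replicate 3, AA replicate 3 and TSA replicate 2 lie at the upper right in both panels, and the 6 histone-rich libraries lie at the lower left together with HMS-I1 replicate 2 and Control replicate 3.

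Limma called 0 of 17896 genes (0% of genes tested) and 0 of the 47 members, at an adjusted p under 0.05, in each of the 4 comparisons with Control, each of the 6 comparisons between treatments and the test of any difference among the 5 groups. At an unadjusted p under 0.05 there were 98 genes and 1 member in MTX against Control, 73 and 0 in HMS-I1, 143 and 0 in AA, and 1027 and 1 in TSA. In MTX, HMS-I1 and AA that is less than the share of 0.05 that tests without any difference would give. This fit holds no library set, so the difference between the sets enters its spread. With the set as a term the genes numbered 328, 219, 297 and 1351, again with 0 called. The lack of calls therefore does not show that levels were equal. A statement below that a member lay higher or lower is therefore no call, apart from those on Psme3 in fits that leave out TSA replicate 1. The comparisons with Control share its 3 libraries, and agreement between them is not counted here. Groups of libraries that did not overlap were found for few members, and the share over all tested genes is given beside each.

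In MTX against Control, 33 of 47 members lay higher and 14 lower, with a median log2 difference of 0.14. Over all genes 47.9% lay higher, with a median of -0.01. With the library set as a term in the model the members' median was 0.07 (30 higher). The lean rested on MTX replicate 3, without which 22 lay higher and 25 lower (median -0.0039), and without Control replicate 1 the median was 0.06 and without MTX replicate 1 it was 0.22. By role, 6 of 7 alpha ring genes (median 0.25) and 8 of 8 lid genes (median 0.12) lay higher, while the lid genes stood at -0.01, with 2 of 8 higher, once the set was in the model. Constitutive active sites had a median of -0.20 and immune active sites of 1.40. Psmb9 differed by 1.81 (SE 0.89) and Psmb8 by 1.40 (SE 0.88), each with an adjusted p of 1 (limma). With the set as a term these were 1.25 and 0.79.

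Psma3 (ENSMUSG00000060073), an alpha ring subunit, had the smallest p of the members in MTX against Control. It stood at 3629, 4093 and 3582 normalised counts in Control, 4213, 6105 and 5701 in MTX, 4075, 3628 and 3958 in HMS-I1, 3449, 3668 and 3183 in AA, and 3702, 3831 and 4026 in TSA. All 3 MTX libraries lay above the 12 others, replicate 1 by a small margin and replicates 2 and 3 by a wide one. It was the 1 member higher without overlap with Control, where 1.32% of all genes were. The difference was 0.49 (SE 0.18, unadjusted p = 0.0187, adjusted p = 1, limma), from 3768 ± 283 to 5340 ± 996 normalised counts (SD, n = 3 each). Within the histone-rich libraries it was 0.13 and within the histone-poor ones 0.72. Set directly against MTX, Psma3 was at -0.62 in AA (unadjusted p = 0.00452, adjusted p = 1, limma), at -0.45 in TSA and at -0.44 in HMS-I1.

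The other members named for MTX were not called either. Psmf1, which encodes the inhibitor PI31, was at 6948, 8102 and 6952 normalised counts in Control and at 5860, 4765 and 6513 in MTX, the 1 member lower without overlap, where 1.15% of all genes were. Its difference was -0.37 (SE 0.34). Psma2, another alpha subunit, was at 0.40 (SE 0.25), Psme1 at 0.70 (SE 0.65) and the core assembly chaperone Psmg4 at -0.47 (SE 0.61). The germ cell subunit Psma8 was at 0.31 (SE 0.37) and Psme4 at -0.07 (SE 0.43).

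**Figure D4:**
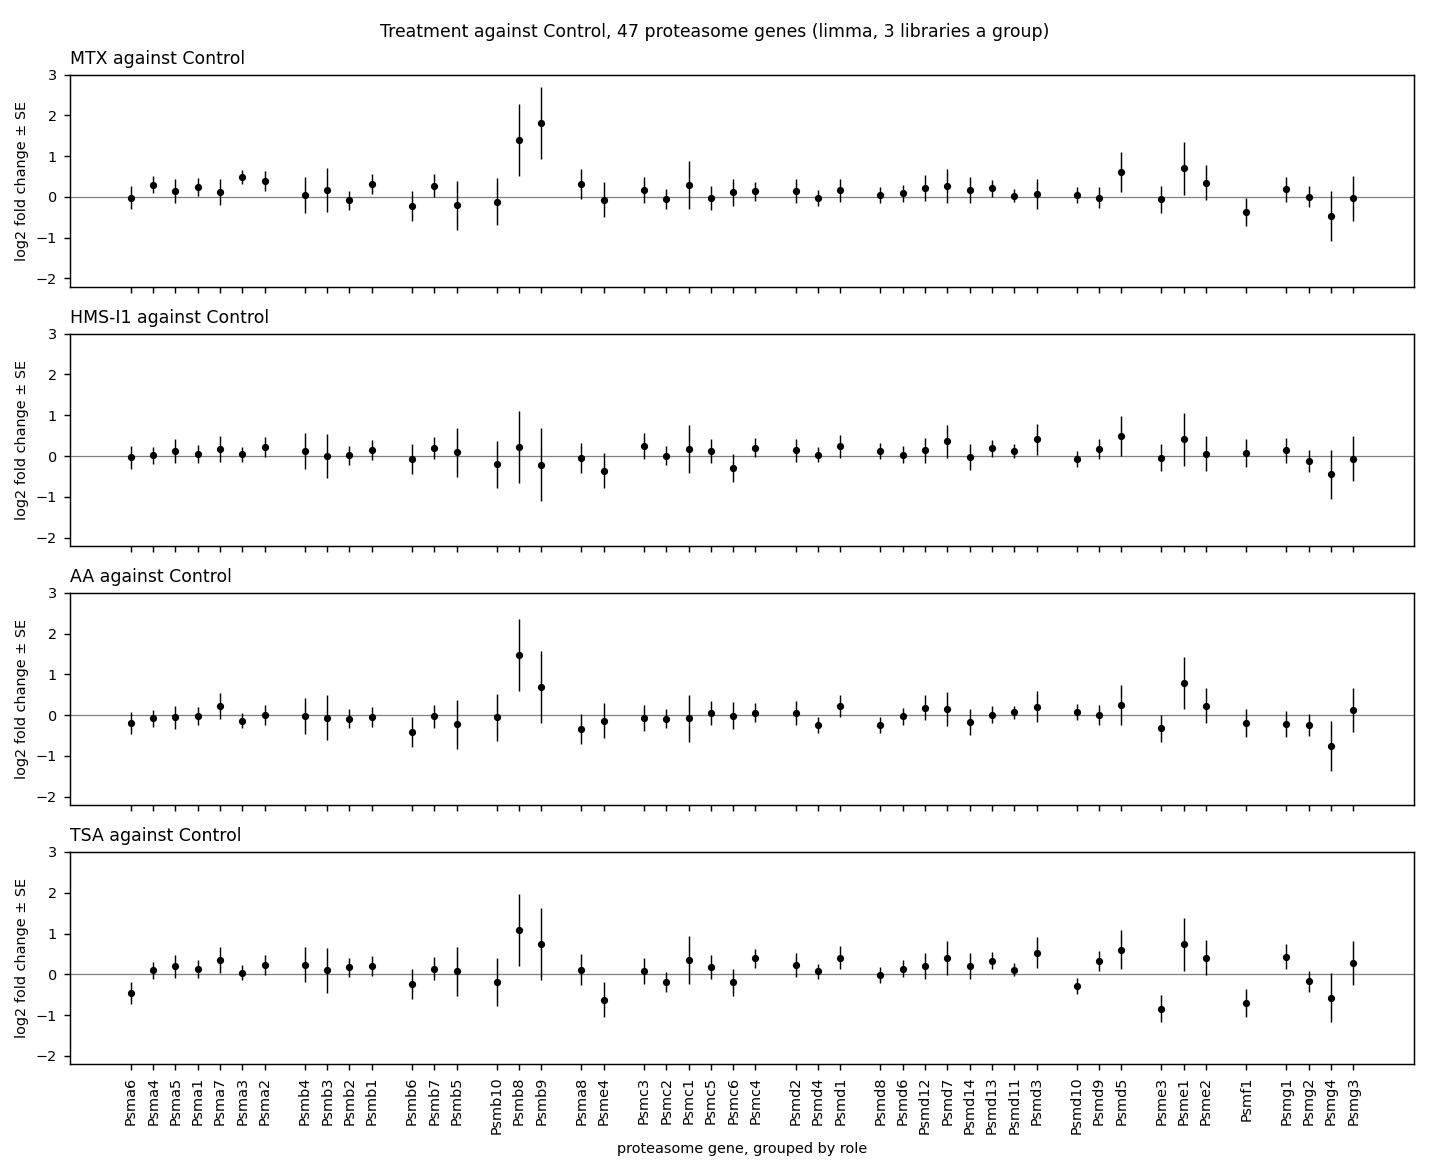
Difference of mean log2(normalised count + 1) from Control for each of the 47 tested members in MTX, HMS-I1, AA and TSA, grouped by role, with SE from limma. No difference passed an adjusted p of 0.05, and the largest are those of Psmb9 and Psmb8 in MTX (1.81 and 1.40) and of Psmb8 in AA (1.48).

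In HMS-I1 against Control again 33 members lay higher and 14 lower, with a median of 0.10 and a range of -0.45 to 0.49, against 47.9% higher over all genes. Without HMS-I1 replicate 3, 25 lay higher and 22 lower (median 0.013), without Control replicate 1 the median was 0.04, and with the library set as a term it was 0.07. Immune active sites had a median of -0.20. No member was separated from Control without overlap, where 1.35% of all genes were in each direction. Psmd5, a chaperone of regulatory particle assembly, was at 0.49 (SE 0.49), and the lid genes Psmd3 and Psmd13 at 0.41 (SE 0.38) and 0.19 (SE 0.21). Psmg4 was at -0.45 (SE 0.61), Psme4 at -0.36 (SE 0.43) and the ATPase Psmc6 at -0.29 (SE 0.33), all with an adjusted p of 1 (limma). In HMS-I1 against MTX, Psmb9 was at -2.02 (SE 0.89, unadjusted p = 0.0411, adjusted p = 1, limma).

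In AA against Control 19 members lay higher and 28 lower, with a median of -0.03, and 47.3% of all genes lay higher. Another scaling turned that split, with 31 higher and 16 lower after quantile normalisation and 16 higher and 31 lower after centring each library on its median. Leaving out 1 library turned it as well, with 25 higher and 22 lower without AA replicate 2 (median 0.0011) or without Control replicate 3 (median 0.03), and with the library set as a term 14 lay higher (median -0.08). The 4 beta subunits without an active site (median -0.05) and the 3 with a constitutive one (median -0.23) all lay lower, though 2 and 1 of them lay higher after quantile normalisation. Psmb8 was at 1.48 (SE 0.88) and Psme1 at 0.79 (SE 0.65). Both were also lower in histone-rich libraries, by -1.93 and -1.44, of which Control holds 2 and AA 1. Psmd1, the base scaffold, was at 0.22 (SE 0.28) and Psmg4 at -0.76 (SE 0.61). The ubiquitin receptor Psmd4 and the lid subunit Psmd8 were at -0.24 (SE 0.19) and -0.24 (SE 0.20). Psma8 was at -0.34 (SE 0.37) and Psme4 at -0.14 (SE 0.43). Psme3, at 4674, 3851 and 3828 normalised counts in AA, was the 1 member lower than Control without overlap (2.23% of all genes), and 0 were higher (2.81%).

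In TSA against Control 35 members lay higher and 12 lower, with a median of 0.17, and 50.5% of all genes lay higher. Quantile normalisation moved the median of all genes to 0.12 and that of the members to 0.28. The members' median was 0.09 (32 higher) with the library set as a term, 0.07 (30 higher) without TSA replicate 3, 0.10 (31 higher) without Control replicate 1 and 0.26 (34 higher) without TSA replicate 1. The 3 base scaffold and receptor genes and the 4 beta genes without an active site all lay higher, with medians of 0.22 and 0.19, as did 7 of 8 lid genes (0.20). In histone-rich libraries, of which Control holds 2 and TSA 1, 7 of 8 lid genes lay lower (median -0.37). There 2 of 3 base scaffold and receptor genes (-0.42) and 2 of 4 beta genes without an active site (0.05) lay lower too. The ATPase Psmc4 was at 0.39 (SE 0.24), Psmd1 at 0.41 (SE 0.28) and Psmd13 at 0.33 (SE 0.21). Members with the smallest p on the lower side were Psme3, Psmf1 and Psma6. No member was separated from Control without overlap, where 2.36% of all genes were higher and 2.18% lower.

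Psme3 (ENSMUSG00000078652) stood at 4737, 5882 and 4805 normalised counts in Control and at 5495, 1700 and 2500 in TSA. TSA replicate 1 lay within Control, and replicates 2 and 3 lay below every library of the 4 other groups, whose lowest was 3828. Psma6 was the 1 other member with that pattern, at 20269, 9021 and 13760.0 in TSA against 17406, 21036 and 17695 in Control. Of all tested genes 11% had it. Psme3 differed by -0.84 (SE 0.33, unadjusted p = 0.0251, adjusted p = 0.848, limma), and without TSA replicate 1 by -1.31 (adjusted p = 0.00763), when limma called 992 genes (5.54%) and Psme3 as the 1 member. That fit sets 2 histone-poor libraries against a Control with 2 histone-rich ones. With the histone-poor libraries alone the difference was -1.22 (adjusted p = 0.311, limma), and with the histone-rich ones alone 0.06.

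Without TSA replicate 1, Psme3 was also the 1 member called in TSA against MTX (-1.25, 4.29% of genes called), HMS-I1 (-1.27, 3.0%) and AA (-0.99, 3.44%), while the test of any difference among the 5 groups called 0 members (1.37%). In the same 2 TSA libraries a list of 9 round spermatid genes had mean log2 values of 9.50 and 10.67, against 11.62 to 12.33 in the other 13. Its summed value was 10933 and 20498 normalised counts there, and 53112 in TSA replicate 1. Acr of that list lay within Control (2620 to 5064), at 3204 and 3389. A list of 9 Sertoli cell genes had its highest mean log2 values in the same 2 libraries, at 10.98 and 11.06. Whether the number of round spermatids had a part in the level of Psme3 or Psma6 was not tested. Psmf1 was at 7575, 2280 and 5339 in TSA and differed by -0.70 (SE 0.34, adjusted p = 0.882, limma), or by -0.20 without replicate 2.

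Psma8 and Psme4 did not separate the groups. Psma8 stood at 5417, 6266 and 10499 normalised counts in Control, 6331, 14658 and 7359 in MTX, 6369, 9041 and 5533 in HMS-I1, 6344, 4122 and 6718 in AA, and 6230, 10944 and 6634 in TSA. Its histone-rich libraries lay between 5417 and 6369, while the histone-poor ones ran from 4122 to 14658, and all groups overlapped. Psme4 stood at 26879, 19609 and 15375 in Control, 25228, 24411 and 11278 in MTX, 23179, 17117 and 9698 in HMS-I1, 21883, 17880 and 15572 in AA, and 23067, 10660.0 and 8976 in TSA. Replicate 1 was the highest library of every group, and replicate 3 the lowest. In TSA against Control Psme4 was at -0.63 (SE 0.43, adjusted p = 0.886, limma), and with the library set as a term at -0.38. Psma8 was at 0.11 (SE 0.37) in that comparison, and at -0.05 (SE 0.37) in HMS-I1.

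The interferon-inducible activator pair split. Psme1 stood at 334, 437 and 808 normalised counts in Control, 449, 945 and 1189 in MTX, 368, 851 and 892 in HMS-I1, 467, 780.1 and 1664 in AA, and 305, 1429 and 1248 in TSA. Every histone-rich library lay at 305 to 467 and every histone-poor one at 780.1 to 1664, whatever the group. Psme2 did not divide that way, with 523 to 712 in the histone-rich and 366 to 1294 in the histone-poor libraries. Psme2 is uncertain, since its near copy Psme2b, listed at 0.647 to 20.3 normalised counts, could take some of its reads. The limma differences of Psme1 from Control were 0.41 to 0.79 in the 4 treatments (SE 0.65), and those of Psme2 0.06 to 0.41 (SE 0.43).

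Between the 2 library sets, drawn from the histone genes of these same libraries, no test was made. The members' median difference, histone-rich minus histone-poor, was -0.18 on the log2 scale, with 15 higher and 32 lower in histone-rich libraries, and the median of all genes was 0.00. Psmb8 (-1.93), Psmb9 (-1.71), Psme1 (-1.44), Psmd5 (-1.12), the ATPase Psmc1 (-1.07) and the lid gene Psmd7 (-0.89) lay furthest down. Psmg4 (1.30), Psmb10 (0.80), Psme4 (0.74), Psmb6 (0.67), Psmb3 (0.63) and Psmb5 (0.62) lay furthest up. Higher in histone-poor libraries were 5 of 6 ATPases, 7 of 8 lid genes and 3 of 3 assembly chaperones of the regulatory particle. The same held for 2 of 3 base scaffold and receptor genes and for 6 of 7 alpha ring genes of the core. Of the beta genes, 2 of 4 without an active site and 1 of 3 with a constitutive one did so. Over all tested genes it was 8938 of 17896. Psmb6 and Psmg4 were higher in histone-rich libraries without overlap (2 of 47 members, and 12.8% of all genes). Without overlap on the other side were Psmb8, Psmc1, Psmc3, Psmc5, Psmd1, Psmd5, Psmd7, Psmd12 and Psme1 (9 of 47, and 12% of all genes). Psmd7 stood at 1653 to 1963 normalised counts in histone-rich and 2533 to 3792 in histone-poor libraries, and Psmd5 at 408 to 568 and 785 to 1295. For Psmc3 the gap was narrow, with 16525 to 19070 against 19413 to 32461.

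**Figure D5:**
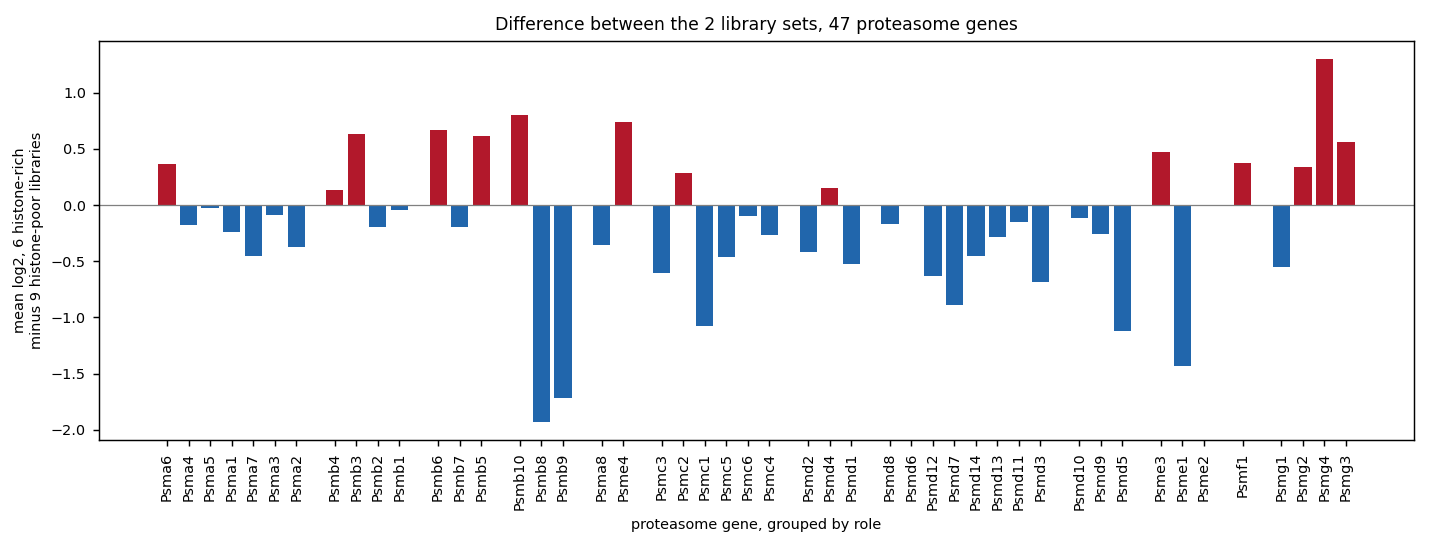
Difference of mean log2(normalised count + 1) between the 6 histone-rich and the 9 histone-poor libraries for each of the 47 tested members, grouped by role. Bars below 0 (blue) are higher in histone-poor libraries, from -1.93 for Psmb8, and bars above 0 (red) higher in histone-rich ones, up to 1.30 for Psmg4.

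The histone-poor libraries were themselves uneven. In MTX, HMS-I1 and TSA, replicate 3 exceeded replicate 2 by over 2-fold in all 3 groups for Psmb3, Psmb4, Psmb5 and the core assembly chaperone Psmg3 (4 of 47 members, 8.51%), against 2.67% of all genes. In the other direction 0 of 47 members (0%) were over 2-fold lower in all 3 groups, against 6.11% of all genes. Psmb5 (ENSMUSG00000022193) was at 499 and 2428 normalised counts in MTX replicates 2 and 3, 896 and 2568 in HMS-I1, and 885 and 2564 in TSA. In AA the order was opposite, at 1457 and 1093. Control replicates 1 to 3 were at 2075, 1860.2 and 1063. Over the members, the mean excess of replicate 3 had a Spearman correlation of 0.58 with the GC content of the transcript and of -0.49 with its length (n = 47). Over 16562 genes these were 0.56 and -0.29. All points share the same 6 libraries, genes are not independent replicates, and whether GC content had a part in the difference was not tested.

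Between treatments, TSA against AA had 37 members higher and 10 lower (median 0.17, 48.4% of all genes higher), and 27 higher without TSA replicate 3 (median 0.03). There Psma3, Psmd8 and the core chaperone Psmg1 lay higher without overlap (2.83% of all genes), and the assembly chaperone Psmd10 lower (2.58%). AA lay below HMS-I1 in 36 of 47 members (median -0.14, or 29 and -0.04 without HMS-I1 replicate 3), with Psmf1 lower without overlap (2.55%) and 0 higher (2.49%). It lay below MTX in 34 (median -0.13), with Psma3 and Psmd8 lower without overlap (2.6%) and 0 higher (2.69%), where 34 became 29 after quantile normalisation and 40 after centring on the median. Without MTX replicate 3 that lean was gone, with 25 lower and 22 higher (median -0.011). TSA against HMS-I1 had 32 higher (median 0.08), with 0 separated in either direction (1.22% of genes higher, 1.38% lower), and the direction turned without TSA replicate 3, with 17 higher (median -0.04). Its median was 0.02 without HMS-I1 replicate 1 or without HMS-I1 replicate 2. TSA against MTX had 23 higher (median -0.01, or 30 after quantile normalisation), with Psma3 lower without overlap (1.99%) and 0 higher (1.94%), and had 32 higher without MTX replicate 3 (0.14) and 14 without TSA replicate 3 (-0.11). HMS-I1 against MTX had 19 higher (median -0.03), with Psmf1 higher (1.18%) and Psma3 lower (1.45%) without overlap, and turned to 34 higher (median 0.13) without MTX replicate 3 and to 24 higher (0.014) without HMS-I1 replicate 2. None of these members passed (adjusted p of 0.983 to 1, limma).

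Other genes of the pathway were not called either. Of 22 proteasome partners, which include assembly factors, shuttle proteins, deubiquitinases and the regulators Nfe2l1 and Nfe2l2, 0 were called by limma in any comparison with Control, and 13 lay higher in MTX (median 0.03), 14 in HMS-I1 (0.09), 12 in AA (0.05) and 17 in TSA (0.14). Pomp, which matures the core particle, was at 0.33 (SE 0.29) in MTX, Nploc4, a partner of the unfoldase VCP, at 0.35 (SE 0.29) in HMS-I1, and Sem1, a small lid subunit, at -0.84 (SE 0.47) in AA. Ufd1, the other partner of VCP, was at -0.70 (SE 0.27, unadjusted p = 0.0211, adjusted p = 0.848, limma) in TSA. Of 6 genes of ubiquitin and its activating enzymes, 0 were called, and 5 lay lower in MTX and HMS-I1 and 4 in AA and TSA. After quantile normalisation 2 of the 6 lay lower in AA and 3 in TSA. In AA against Control 19 of 20 antigen presentation and interferon genes lay higher (median 0.83), with 0 called, and Irf9, a transcription factor of the interferon response, was at 0.87 (SE 0.35, unadjusted p = 0.0257, adjusted p = 1, limma). In MTX 19 of 20 lay higher (median 0.58), in TSA 18 (0.48) and in HMS-I1 8 (-0.09). Of these 20 genes 18 lay lower in the histone-rich libraries (median -0.91), of which Control has 2 and each treatment 1, and 15 of the 17 leukocyte genes did so too (median -0.84). With the library set as a term 18 of 20 lay higher in AA (median 0.56), 15 in MTX (0.28), 13 in TSA (0.14) and 3 in HMS-I1 (-0.34).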

How the data were processed

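RNA from whole testes was sequenced in 15 libraries, grouped by their titles. The deposited signal is a table of normalised counts made by the authors with FastQC 0.11.9, Salmon 0.12.0, DESeq2 1.34.0 and the build GRCm39, per the submitters' processing notes; the strand setting was not given in the sources used, and the depth is unknown. Of 36118 identifiers, 35825 matched a symbol of GENCODE vM21 (GRCm38), which also gave transcript lengths. Genes with a mean of 10 or more (17896) were tested as log2(value + 1) with limma 3.58.1 (R 4.3.3, trended variance, 5 group means, 10 residual degrees of freedom), two-sided, adjusted by Benjamini and Hochberg over all tested genes; the script was tested on simulated data. Members and lists were chosen with earlier results of these data known. Every member may be named. In each comparison with Control, statistics are drawn from the 3 higher and 3 lower members with the smallest p. They are also drawn from Psma8, Psme4, Psmb5 to Psmb10, Psme1 and Psme2, and from up to 2 genes per pathway list. Not all of these are printed. Against Control, none are given for Psmb5, Psmb6, Psmb7 and Psmb10, or for Psma6 in TSA. Those of Psmb8 are given for MTX and AA only, and those of Psmb9 for MTX only. Psmb3, Psmb4, Psmg3 and others shown without statistics were picked after their values were seen. Libraries were set by the midpoint of their mean log2 over 60 histone genes. Whole reads could not be recovered: 6.27% to 13.0% of low values were whole multiples within 0.02. Deviations of same-numbered libraries from group means correlated at 0.13 to 0.76 between treatments. With Control the values were 0.41 to 0.52 for replicate 1, -0.58 to -0.30 for replicate 2 and 0.21 to 0.675 for replicate 3. Control replicate 2 is histone-rich and replicate 2 of every treatment histone-poor. These correlations therefore cannot tell whether the numbers mark pairs. Alternatives covered pseudocount, filter, scaling, trend, weights, library set, replicate block and libraries left out.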

Additional observations from a re-analysis of the deposited data

How the results depend on the processing

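The count of 0 members called held under each alternative to the pseudocount, filter, scaling, variance trend, groups in the fit, library set and subset of libraries, in all comparisons. Exceptions were array quality weights, with 12 members called in AA against Control, 10 in TSA against Control, 9 in TSA against AA and 15 for any difference among the 5 groups, and fits leaving out a library. Leaving out each library gave 0 to 1 members in TSA against Control, MTX, HMS-I1 and AA, the 1 being Psme3 without TSA replicate 1, and 0 elsewhere; where a group was left with 2 libraries, its spread was pooled with the others. The weighted fit called 6645 genes in AA, 4234 in TSA, 3092 in TSA against AA and 5640 for any difference, but limma's estimate of the weights stopped before it converged, with 38.8 for AA replicate 2 and 0.23 to 2.92 for the others, so nothing is read from these calls. With the replicate block 0 members were called in every comparison, with a smallest adjusted p of 0.249 (limma, Psme3 in TSA against Control). Of 1180 values of named members under alternatives, 1138 kept within the replicate spread and did not pass the threshold. A further 27 moved by more without passing it, 15 passed it, and 110 changed sign, none of them called. Apart from Psme3 in TSA against Control without TSA replicate 1, the values that passed came from the weighted fit. Depth is unknown, so values near 0 carry no counting limit, and 3 libraries per group limit the precision.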
